A study of Mus musculus with 2 samples.

Results

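The genes described here are 9 genes of the Siah and oxygen-sensing system: the ubiquitin ligase genes Siah2, Siah1a and Siah1b, the prolyl hydroxylase genes Egln1, Egln2 and Egln3, the hypoxia-inducible factor genes Hif1a and Epas1, and Vhl. Their rows were taken by symbol, and they are 9 of the 27998 genes of the deposited matrices. Each symbol matched 1 gene. Their unique molecular identifiers (UMIs, counts of single captured transcripts) were read at the 10100 cells that the authors kept, 4524 from the WT library and 5576 from the Siah2-/- library.

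Cells of the BRAF-mutant mouse melanoma line YUMMER1.7, which is an immunogenic line, were injected under the skin of male C57BL/6 mice aged 8 weeks that were WT or carried the Siah2-/- deletion in all host cells. Tumors were taken after 11 days, and sorted CD45+ cells (leukocytes) were mixed with a smaller number of sorted CD45- cells. One droplet library of 3′ transcript ends was made per genotype, so each genotype has 1 library, and genotype, tumor pool, suspension, library and lane cannot be told apart. No test is therefore given; intervals are 95% exact intervals for counting error only, and all ratios are the Siah2-/- library over the WT library.

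Prolyl hydroxylases use oxygen to mark HIF alpha subunits, and the VHL ligase then has the marked subunits destroyed. When oxygen falls, the subunits persist, pair with Arnt and switch on genes of glycolysis, blood vessel growth and survival, among them Egln1 and Egln3 themselves. Siah ligases are known to target prolyl hydroxylases, above all Egln3, for destruction in hypoxia. That step acts on protein, whereas the libraries measure transcripts.

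Cells were sorted into classes by sums of marker UMIs. Immune cells had at least 20 UMIs over 6 leukocyte genes (Ptprc, Coro1a, Laptm5, Cd52, Cd53 and Rac2) and numbered 3747 in the WT library and 5384 in the Siah2-/- library. Fewer than 10 such UMIs defined the CD45-negative class, with 752 and 125 cells. Within the immune cells, Cd3, Cd8, Cd4, Foxp3, natural killer (NK), dendritic cell (DC), macrophage and complement C1q markers gave 466 and 861 CD8 T cells, 20 and 304 CD4 T cells without Foxp3, 53 and 76 Tregs, 382 and 583 NK cells, 99 and 115 DCs, 1606 and 1259 macrophages, and 315 and 835 monocyte-like cells with macrophage markers but little C1q. A further 360 and 391 barcodes carried both T cell and macrophage markers and were kept apart, with median depths of 15571.5 and 16295.0 UMIs against 10353.0 and 8565.50 over all immune cells. In no class were 471 WT cells (10.4%) and 1027 Siah2-/- cells (18.4%), of which 25 and 67 lay between the 2 leukocyte limits. The median macrophage marker sum was 0 in the T and NK classes, and 3 and 2 in DCs, and the median Cd3 sum of the macrophages and monocyte-like cells was 0.

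Levels are given as CPM, the UMIs of a gene per 1000000 UMIs of all genes in the same cells. Over the cells kept, the libraries held 64896674 and 59184555 UMIs, with medians of 11426.0 and 8684.00 per cell. Of the cell barcodes, 34 occurred in both libraries, against 34.2 for barcodes drawn independently. The CD45-negative cells held 29.5% of all UMIs in the WT library and 4.86% in the Siah2-/- library, so immune cells and CD45-negative cells were kept apart unless all cells are named. The labels give 2 different ratios for mixing CD45- into CD45+ cells, and the authors' methods a single one, so the share used is not certain. The melanocyte genes Pmel, Mlana, Dct and Sox10 had 10 and 5 UMIs in all in the CD45-negative cells. These cells are therefore called by their gates: 303 and 42 with Hmga2 UMIs and few fibroblast UMIs, and 132 and 27 with the fibroblast genes Dcn, Lum and Col1a1.

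Siah2 encodes a RING finger ubiquitin ligase (chr3:58674938-58692400, minus strand, GRCm38). It had 499 UMIs in WT immune cells and 476 in Siah2-/- immune cells, or 11.0 CPM (10.1 to 12) and 8.62 CPM (7.87 to 9.43). The transcript was thus still counted in the library labelled Siah2-/-, with a log2 ratio of -0.35 (-0.54 to -0.17). Which part of the gene was deleted is not stated in the sources read, and 3′ tags lie at the transcript end, so the label of neither library is tested by these counts. Barcodes of 1 to 100 UMIs, taken as empty droplets with free RNA, held Siah2 at 9.96 CPM in the WT library and 16.3 CPM in the Siah2-/- library.

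Among classes, Siah2 was highest in monocyte-like cells in both libraries, with 17.5 CPM (13.0 to 23.1) in WT and 14.2 CPM (11.4 to 17.4) in Siah2-/-. NK cells were lowest in both, at 4.88 CPM (2.98 to 7.54) and 2.70 CPM (1.47 to 4.53). Macrophages lay between, at 11.9 and 9.92 CPM. Neighbours in this order overlapped in their intervals throughout, and the places of DCs and CD4 T cells differed between the libraries. Tregs gave 3 UMIs in 53 WT cells and 4 UMIs in 76 Siah2-/- cells, too few to place them.

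Among the 9 classes, the CD8 T cells had the Siah2 interval farthest from 0, with 44 UMIs (8.02 CPM) in WT and 43 UMIs (4.93 CPM) in Siah2-/- and a log2 ratio of -0.70 (-1.34 to -0.06). Macrophages gave -0.26 (-0.57 to 0.04) and monocyte-like cells -0.30 (-0.82 to 0.22), which became -0.88 with the marker minimums doubled and -0.68 with the WT minimum UMI count in both libraries. CD45-negative cells had 162 UMIs (8.48 CPM) and 22 UMIs (7.66 CPM), a log2 ratio of -0.15 (-0.86 to 0.50), and -0.86 over all barcodes with at least 1000 UMIs. The tumor line carries its own Siah2 alleles whatever the host, whereas fibroblasts are host cells. Cells with Hmga2 UMIs had 107 and 10 Siah2 UMIs, or 11.7 and 9.42 CPM, a log2 ratio of -0.32 (-1.42 to 0.62) that was -0.74 when every barcode with at least 1000 UMIs was taken. Against the other CD45-negative cells of the same library they were higher in WT, by a log2 ratio of 1.09 (0.61 to 1.59), and gave 0.51 (-0.86 to 1.84) in Siah2-/-. The fibroblast-marked cells had 16 and 4 Siah2 UMIs, or 5.86 and 5.98 CPM, with an interval of the log2 ratio from -2.01 to 1.66.

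A UMI of Siah2 was seen in 454 WT immune cells, 12.1% (11.1 to 13.2), and in 437 Siah2-/- immune cells, 8.12% (7.40 to 8.88). Cells of the WT library were deeper. After each cell was thinned to 4000 UMIs, which left out no immune cell, the shares were 4.43% (3.79 to 5.14) and 3.75% (3.26 to 4.29), and their intervals overlapped. NK cells, the lowest class, gave 1.83% and 0.858% after the same thinning. No class is known to lack the gene.

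Siah1a (chr8:86724007-86745934, minus strand) and Siah1b (chrX:164070705-164076493, minus strand) encode near-identical ligases. Of all 30-base words of the longest Siah1a transcript, 23.2% occurred in that of Siah1b. At the transcript ends, where these libraries read, 1.70% of the words in the last 500 bases of Siah1a and 15.5% of those of Siah1b were shared, so the split of reads between the copies is uncertain. The last 500 bases of the other 7 genes shared no such word with any other gene. An antisense gene, Gm10638, overlaps exons of Siah1a, and whether strand was used in counting was not stated.

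Siah1b was lower in the Siah2-/- library. It had 159 UMIs (3.51 CPM, 2.98 to 4.10) in WT immune cells and 121 UMIs (2.19 CPM, 1.82 to 2.62) in Siah2-/- immune cells, a log2 ratio of -0.68 (-1.03 to -0.33). When every barcode with at least 1000 UMIs was taken, Siah1b gave -0.44, within 1.5-fold. The log2 ratio lay below 0 in each of the 9 classes. They were -1.03 (-1.80 to -0.28) in CD8 T cells with 36 and 28 UMIs, -0.92 (-1.73 to -0.16) in macrophages with 51 and 21 UMIs, and -0.62 (-1.62 to 0.23) in CD45-negative cells with 123 and 12 UMIs. In the other 6 classes the gene had under 50 UMIs over both libraries and each interval held 0.

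Siah1a did not differ beyond counting error between the immune cells of the libraries, with 260 UMIs (5.74 CPM) and 367 UMIs (6.65 CPM) and a log2 ratio of 0.21 (-0.02 to 0.45). Its level was highest in CD45-negative cells in both libraries, at 11.7 CPM (10.2 to 13.4) and 12.2 CPM (8.48 to 16.9), with overlap of the next class. The log2 ratio there was 0.06 (-0.50 to 0.57) and turned to -1.23 without the 5% of cells with most UMIs. Summing Siah1a and Siah1b gave an immune log2 ratio of -0.06. Free RNA held Siah1a at 8.60 and 9.30 CPM and Siah1b at 5.47 and 3.10 CPM.

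**Figure D1:**
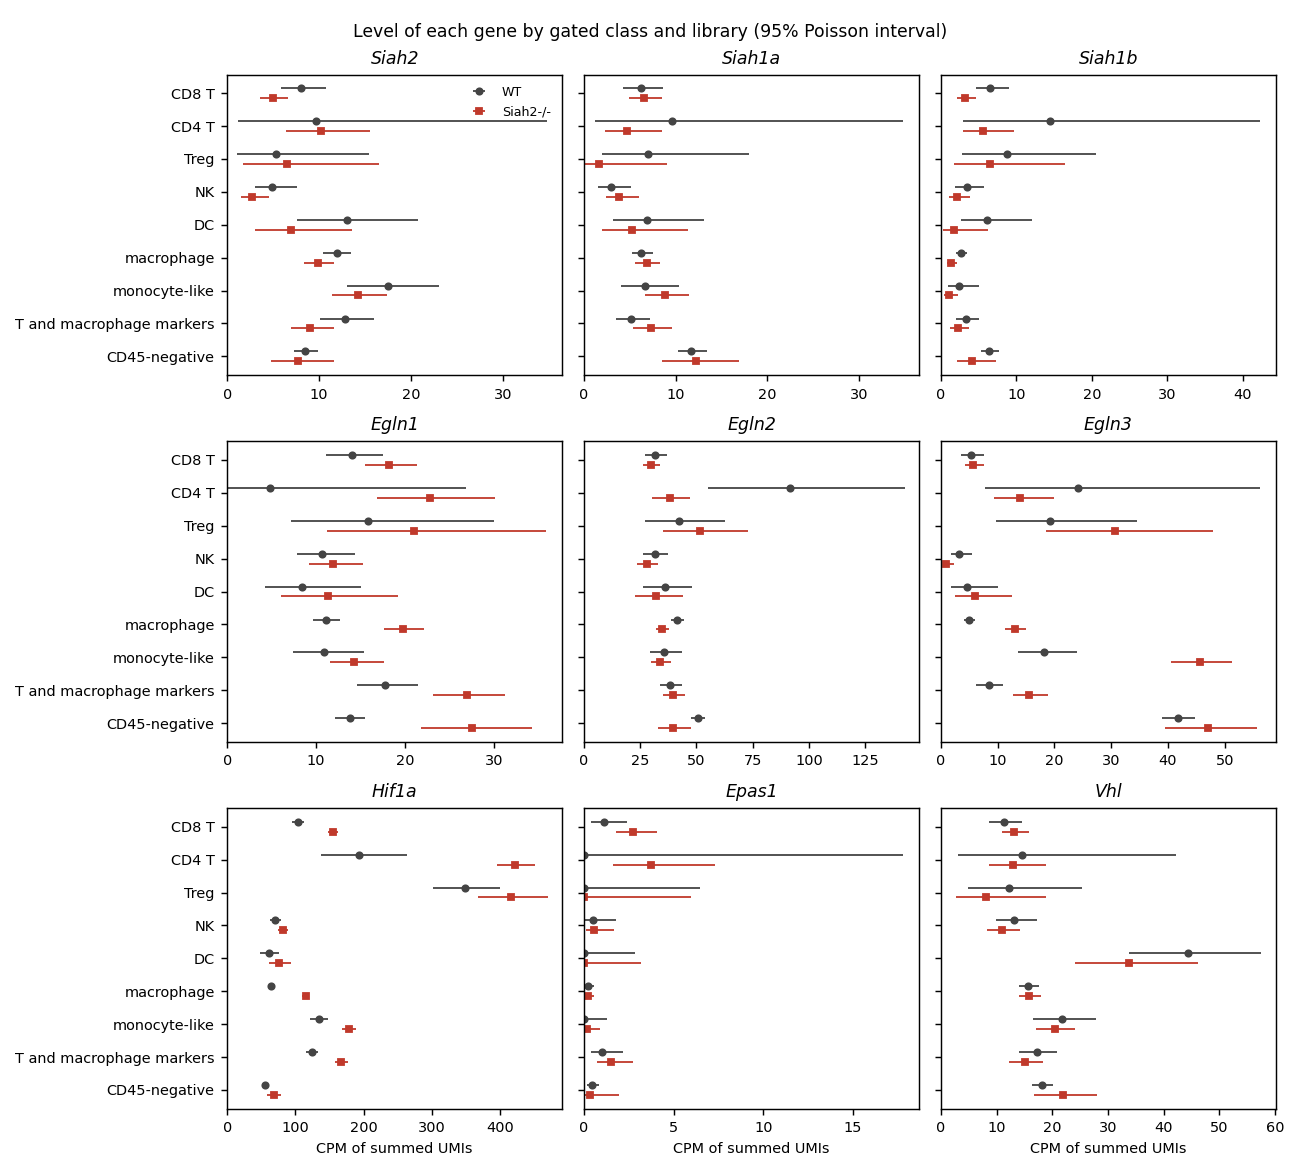
CPM (horizontal axis, linear, from 0) of each of the 9 genes in 9 gated classes, with WT as grey circles and Siah2-/- as red squares and bars for 95% Poisson intervals of the summed UMIs. Egln3 is highest in CD45-negative cells in both libraries (41.8 and 47.0 CPM), Hif1a is highest in T cells with Foxp3 or Cd4, and Vhl is highest in DCs.

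The prolyl hydroxylase genes behaved differently from each other. Egln1 and Egln3 were higher in Siah2-/- immune cells, by 1.59-fold and 2.07-fold, and Egln2 was within 1.5-fold. Of all 12378 genes with at least 50 UMIs over both libraries in immune cells, 19.3% lay past 1.5-fold in either direction, 8.78% higher and 10.5% lower. Of the 9 genes described, 4 were past 1.5-fold higher (Egln1, Egln3, Hif1a and Epas1) and 1 lower (Siah1b).

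The promoters of Egln1, Egln3 and Hif1a are shown because these 3 genes were past 1.5-fold higher in pooled immune cells and have at least 500 UMIs. Among classes, all 3 were past it only in macrophages. The windows run from 250 bases before to 50 bases after a RefSeq transcript start (GRCm38.p6) and are read 5′ to 3′ on the gene's strand. Capitals mark the hypoxia response core, searched as ACGTG or GCGTG on either strand, so that CACGTG counts on both strands.
Egln1, chr8:124949205-124949504, minus strand: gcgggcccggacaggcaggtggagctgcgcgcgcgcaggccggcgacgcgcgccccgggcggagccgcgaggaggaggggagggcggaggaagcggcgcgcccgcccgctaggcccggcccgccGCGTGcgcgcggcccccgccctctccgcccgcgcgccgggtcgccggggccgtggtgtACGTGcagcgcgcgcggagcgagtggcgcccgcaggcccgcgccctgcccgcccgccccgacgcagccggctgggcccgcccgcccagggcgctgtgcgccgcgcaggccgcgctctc
Egln3, chr12:54203825-54204124, minus strand: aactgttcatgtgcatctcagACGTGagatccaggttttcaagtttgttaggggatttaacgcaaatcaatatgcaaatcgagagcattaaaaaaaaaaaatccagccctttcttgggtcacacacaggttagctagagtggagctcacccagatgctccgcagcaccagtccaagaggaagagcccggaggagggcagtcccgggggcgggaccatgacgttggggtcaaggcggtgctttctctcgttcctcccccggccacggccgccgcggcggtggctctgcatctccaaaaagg
Hif1a, chr12:73907617-73907916, plus strand: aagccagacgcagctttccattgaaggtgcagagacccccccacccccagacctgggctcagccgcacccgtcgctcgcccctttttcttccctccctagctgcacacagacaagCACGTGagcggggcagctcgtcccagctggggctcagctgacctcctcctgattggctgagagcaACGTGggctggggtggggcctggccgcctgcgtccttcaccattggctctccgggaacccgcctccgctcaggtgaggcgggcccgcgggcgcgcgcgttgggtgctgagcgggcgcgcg
The core occurred 2 times in the Egln1 window, 1 time in the Egln3 window and 3 times in the Hif1a window. It also occurred in 43.8% of all 32851 promoter windows of the same length, and 2 or more times in 20.6%. Windows were found for 7 of the 9 genes, not for Siah2 and Epas1. The main Egln2 window held 6 matches, the Siah1a window 2, the Vhl window 0 and the Siah1b windows 4 and 1. Matches thus also stood in genes within 1.5-fold and in the gene that was lower. A match describes the letters only.

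Egln3 (chr12:54178981-54203860, minus strand) encodes the prolyl hydroxylase PHD3, whose gene is itself switched on by HIF. In immune cells it had 328 UMIs in WT and 826 in Siah2-/-, or 7.24 CPM (6.48 to 8.06) and 15 CPM (14.0 to 16.0), a log2 ratio of 1.05 (0.86 to 1.24). With the classes weighted equally it was 0.58, just within 1.5-fold, though that gave 20 WT CD4 T cells (5 UMIs) full class weight. Over all cells together it appeared equal, at 17.5 and 17.3 CPM, since CD45-negative cells held 70.4% of its UMIs in the WT library and 13.2% in the Siah2-/- library.

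CD45-negative cells led the order of classes for Egln3, with 798 UMIs (41.8 CPM, 38.9 to 44.8) in WT and 135 UMIs (47.0 CPM, 39.4 to 55.6) in Siah2-/- and a log2 ratio of 0.17 (-0.10 to 0.43). Those with Hmga2 UMIs had 43.7 and 59.3 CPM, a ratio of 0.44 (0.03 to 0.83) that became 0.87 without the 5% of cells with most UMIs, and the fibroblast-marked cells 38.8 and 46.3 CPM, so that both groups carried the gene. Egln3 was also high in monocyte-like cells, with 52 UMIs (18.2 CPM, 13.6 to 23.9) in WT and 296 UMIs (45.7 CPM, 40.6 to 51.2) in Siah2-/-. In the Siah2-/- library the monocyte-like cells could not be told from CD45-negative cells, whereas in WT their intervals were apart. Tregs held 19.3 CPM (9.64 to 34.6) from 11 UMIs and 30.7 CPM (18.5 to 47.9) from 19 UMIs, and CD4 T cells 24.1 CPM from 5 UMIs and 13.9 CPM from 30 UMIs. In WT the intervals of these 2 classes and of the monocyte-like cells overlapped. CD8 T cells, with 5.29 and 5.73 CPM, and DCs, with 4.60 and 6.06 CPM, were low in both libraries.

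Of the classes with at least 50 Egln3 UMIs, the gene was past 1.5-fold in those with macrophage markers. Its log2 ratio was 1.41 (1.05 to 1.78) in macrophages, where the gene had 96 UMIs (4.92 CPM) in WT and 199 UMIs (13.1 CPM) in Siah2-/-. Monocyte-like cells gave 1.33 (0.90 to 1.78), and barcodes with both T cell and macrophage markers gave 0.89 (0.40 to 1.41). In CD8 T cells the ratio was 0.12 (-0.57 to 0.83) from 29 and 50 UMIs. NK cells held 13 and 5 UMIs, 3.17 and 0.963 CPM, under the 50 UMIs asked for a count, and doubling the marker minimums turned the sign of their ratio from -1.72 to 1.63. Also under 50 UMIs, Tregs gave 0.67 (-0.48 to 1.88), DCs 0.40 (-1.40 to 2.25) and CD4 T cells -0.79 (-2.17 to 0.93). The difference of these ratios between classes was not tested. Macrophages are not split further, so a different mix of macrophage states and a difference within a state were not told apart. Their median C1q sum was 214 UMIs in WT and 155 in Siah2-/-.

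**Figure D2:**
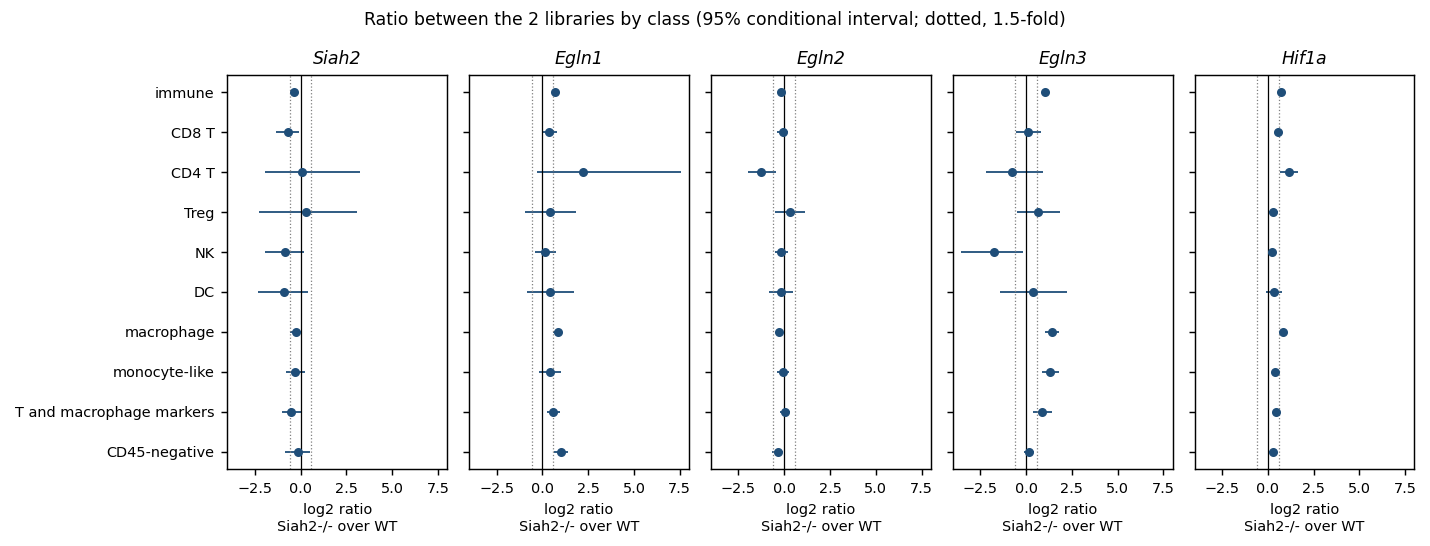
Log2 ratio of the Siah2-/- library over the WT library (horizontal axis) for 5 genes in all immune cells and in each class, with 95% conditional intervals as bars and dotted lines at 1.5-fold. Of the classes with at least 50 Egln3 UMIs, Egln3 lies past 1.5-fold in macrophages, monocyte-like cells and barcodes with both T cell and macrophage markers. In CD8 T and CD45-negative cells Egln3 lies within it. Egln2 lies within 1.5-fold in all classes except the CD4 T class with 20 WT cells.

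A UMI of Egln3 was seen in 227 WT immune cells (6.06%, 5.32 to 6.87) and 538 Siah2-/- immune cells (9.99%, 9.20 to 10.8). Thinned to 4000 UMIs, the shares were 2.51% (2.03 to 3.06) and 5.13% (4.55 to 5.75). The order thus held although the Siah2-/- cells were shallower. Thinned NK cells gave 0.524% and 0.343%, and empty droplets 14.7 and 15.7 CPM. Among CD45-negative cells 52.3% and 51.2% had a UMI before thinning, at median depths of 23223.5 and 25084.0 UMIs, and 15.4% and 19.2% after it. One monocyte-like cell of the Siah2-/- library held 18 Egln3 UMIs, the most in any immune cell.

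Egln1 (chr8:124908587-124949324, minus strand) encodes PHD2, the main hydroxylase that marks HIF in normal oxygen. It had 550 UMIs (12.1 CPM, 11.1 to 13.2) in WT immune cells and 1063 UMIs (19.3 CPM, 18.1 to 20.5) in Siah2-/- immune cells, a log2 ratio of 0.67 (0.52 to 0.82). In CD45-negative cells it had 263 UMIs (13.8 CPM) and 79 UMIs (27.5 CPM), a ratio of 1.00 (0.62 to 1.37). The median leukocyte marker sum of these cells was 3 UMIs in WT and 6 in Siah2-/-. Macrophages gave 0.84 (0.58 to 1.09) from 216 and 301 UMIs. CD8 T cells gave 0.38 (-0.03 to 0.79), monocyte-like cells 0.40 (-0.20 to 1.04) and NK cells 0.15 (-0.43 to 0.75), each with an interval that held 0.

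The order of classes for Egln1 was shallow. In WT it ran from 17.8 CPM in barcodes with both T cell and macrophage markers to 4.82 CPM in the CD4 T class, which rests on 1 UMI in 20 cells, and every neighbour overlapped. In Siah2-/- it ran from 27.5 CPM in CD45-negative cells to 11.3 CPM in DCs. A UMI was seen in 13.0% and 16.4% of immune cells, or 4.54% (3.89 to 5.25) and 6.71% (6.05 to 7.41) after thinning. Empty droplets held 10.4 and 14.7 CPM.

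Egln2 (chr7:27158658-27166802, minus strand) encodes PHD1. It was counted at 1722 UMIs (38.0 CPM, 36.2 to 39.8) in WT immune cells and 1862 UMIs (33.7 CPM, 32.2 to 35.3) in Siah2-/- immune cells, a log2 ratio of -0.17 (-0.27 to -0.08). The gene was spread evenly: outside the CD4 T class, class levels lay between 31.5 and 50.6 CPM in WT and between 27.9 and 51.6 CPM in Siah2-/-. CD45-negative cells had 50.6 and 39.7 CPM, a ratio of -0.35 (-0.65 to -0.07). The CD4 T value of -1.27 (-2.0 to -0.46) rests on 19 UMIs in 20 WT cells and became -0.40 when all barcodes with at least 1000 UMIs were taken. Exons of Egln2 overlap those of Cyp2t4 on the other strand. Empty droplets held 38.7 and 46.5 CPM.

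Hif1a (chr12:73901375-73947530, plus strand) encodes the HIF-1 alpha subunit, which is controlled mainly as a protein but is also transcribed more in activated immune cells. WT immune cells held 4057 UMIs, 89.5 CPM (86.8 to 92.3), and Siah2-/- immune cells 8213 UMIs, 149 CPM (146 to 152). Its log2 ratio was 0.73 (0.68 to 0.79), or 1.66-fold. It was 0.55 with the classes weighted equally and 0.51 over all barcodes with at least 1000 UMIs, both within 1.5-fold. A UMI was seen in 56.1% of WT and 64.0% of Siah2-/- immune cells, and in 29% (27.5 to 30.5) and 40.9% (39.6 to 42.2) after thinning. Empty droplets held 91.8 and 126 CPM.

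In T cells Hif1a differed by class. Tregs held 198 UMIs in 53 WT cells, 348 CPM (301 to 400), and 258 UMIs in 76 Siah2-/- cells, 416 CPM (367 to 470). CD4 T cells without Foxp3 had 193 CPM (138 to 263) in WT and 422 CPM (395 to 451) in Siah2-/-. In both libraries monocyte-like cells came next, with 134 and 178 CPM, followed by barcodes with both T cell and macrophage markers, with 124 and 167 CPM, and CD8 T cells, with 104 and 155 CPM. CD45-negative cells were last, at 55.8 CPM (52.5 to 59.3) and 67.9 CPM (58.7 to 78.1). DCs lay just above them in both libraries, with overlapping intervals.

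The Hif1a value was above 0 in each of the 9 classes. It was 0.83 (0.72 to 0.93) in macrophages, from 1259 and 1745 UMIs, and 0.58 (0.43 to 0.72) in CD8 T cells, from 570 and 1353 UMIs, the latter just within 1.5-fold and past it, at 0.60 to 0.66, under 3 other settings. Monocyte-like cells gave 0.41 (0.25 to 0.58) and CD45-negative cells 0.28 (0.05 to 0.50). Tregs gave 0.26 (-0.01 to 0.53), NK cells 0.22 (0.00 to 0.44) and DCs 0.33 (-0.12 to 0.79), none clear of 0 at this depth. The CD4 T ratio of 1.13 (0.67 to 1.63) rests on 40 UMIs in 20 WT cells and was 0.45 when all barcodes with at least 1000 UMIs were taken. Annotated genes Gm49321 on the same strand and Gm15283 on the other overlap exons of Hif1a, and neither is among the genes counted.

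Epas1 (chr17:86753700-86833410, plus strand) encodes the HIF-2 alpha subunit, best known from endothelium and some myeloid cells. It was close to absent from these cells, with 22 UMIs in WT immune cells (0.485 CPM, 0.304 to 0.735) and 60 in Siah2-/- immune cells (1.09 CPM, 0.830 to 1.40), a log2 ratio of 1.16 (0.44 to 1.94). CD8 T cells held 6 and 24 UMIs, or 1.09 and 2.75 CPM, with a ratio of 1.33 (0.00 to 2.91), and CD4 T cells 0 and 8. Macrophages held 4 and 3 UMIs, or 0.205 and 0.197 CPM. In DCs and Tregs no UMI was seen in either library. A floor of 3 counts, which a count of 0 allows, is 2.30 and 2.60 CPM in DCs and 5.27 and 4.84 CPM in Tregs, and the upper ends of the 95% exact intervals are 2.83 and 3.19 CPM and 6.48 and 5.95 CPM. Cells with a UMI were 0.587% and 1.02% of immune cells, and empty droplets held 0.391 and 1.24 CPM.

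Vhl (chr6:113623959-113631633, plus strand) encodes the subunit that binds hydroxylated HIF. It did not differ between the immune cells of the libraries beyond counting error, with 754 UMIs (16.6 CPM, 15.5 to 17.9) in WT and 866 UMIs (15.7 CPM, 14.7 to 16.8) in Siah2-/- and a log2 ratio of -0.08 (-0.23 to 0.06). The whole interval lies within 1.5-fold. Its class pattern was led by DCs in both libraries, with 58 UMIs (44.4 CPM, 33.7 to 57.4) in WT and 39 UMIs (33.8 CPM, 24.0 to 46.2) in Siah2-/-. In WT this interval was clear of the next class, monocyte-like cells with 21.7 CPM (16.6 to 27.8), whereas in Siah2-/- it overlapped that of CD45-negative cells with 21.9 CPM (16.8 to 28.1). In each class the Vhl interval held 0. Thinned shares were 16.2% and 8.70% in DCs against 6.73% and 5.89% in all immune cells. Free RNA held 19.1 and 17.0 CPM.

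Read class by class, the 9 genes stood against the following background, the share of all genes with at least 50 UMIs in the class that lay past 1.5-fold. In CD8 T cells it was 16.5%, and 2 of 8 genes counted were past it, Siah2 and Siah1b, both lower. Siah2 there was -0.56 with cells weighted equally and Siah1b -0.56 over all barcodes with at least 1000 UMIs, both within 1.5-fold. In macrophages it was 15.8%, with Egln1, Egln3 and Hif1a higher and Siah1b lower among 8 counted. In monocyte-like cells it was 15.7%, with 1 of 7, Egln3, higher. Barcodes with both T cell and macrophage markers had 11.6%, with Egln1 and Egln3 of 7 higher, of which Egln1 was 0.55 with the marker minimums doubled. In these barcodes Siah1a, at 0.51, was past 1.5-fold under 4 other settings, at 0.59 to 0.94, and Siah2, at -0.50, under 2, at -0.60 and -0.78. In CD45-negative cells the background was 18.9%, with Egln1 higher and Siah1b lower of 8. NK cells had 13.7% with 0 of 4 genes past it, DCs 24.1% with 0 of 3 (Egln2 became -0.62 with the marker minimums doubled and Vhl -0.76 with cells weighted equally), and Tregs 28.7% with 0 of 2. The CD4 T class, with 20 WT cells, had 36.1%, and Egln1 and Hif1a higher and Egln2 lower of 3. Over all barcodes with at least 1000 UMIs these 3 were 0.46, 0.45 and -0.40, all within 1.5-fold.

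The other genes of the pathway were read from 3 lists. The lists were chosen with earlier results of these data known, so their counts beside the share of all genes are descriptions only. HIF partners and parts of the VHL complex (Arnt, Hif1an, Cited2, the elongin genes Tceb1 and Tceb2, Cul2 and others) had 9 of 11 genes counted in immune cells, and 0 lay past 1.5-fold in either direction, against 19.3% of all genes. Their median log2 ratio was 0.03, against -0.05 over all genes. By class, Cited2, a gene whose protein competes with HIF for its coactivators, was higher in CD8 T cells at 0.82 (0.56 to 1.09), 1 of 9 counted against 7.23% of all genes, and in monocyte-like cells at 0.62 (0.46 to 0.79), 1 of 9 against 7.98%. Crebbp, a coactivator gene, was higher in Tregs at 1.11 (0.26 to 2.02), 1 of 5 against 13.4%, and lower in CD4 T cells at -0.86 (-1.79 to 0.22), 1 of 6 against 15.4%. The other 5 classes had 0. Genes known to be induced by HIF had 14 of 15 counted, of which 8 were past 1.5-fold higher, against 8.78% of all genes, and 0 lower, with a median of 0.60. Vegfa, the vessel growth factor, had 343 and 1413 UMIs (7.57 and 25.6 CPM) and a ratio of 1.76 (1.59 to 1.93). Ndrg1, a stress-response gene, gave 1.27 (1.15 to 1.40) and Bhlhe40, a transcription factor, 1.12 (1.06 to 1.17). Siah partners and substrates had 7 of 8 counted, with Spry2, a feedback inhibitor of growth factor signalling, higher at 0.82 (0.69 to 0.95) and Akap1, a mitochondrial scaffold, lower at -1.05 (-1.60 to -0.51) from 80 and 47 UMIs. The median of that list was -0.02. By class, Spry2 was past 1.5-fold higher in NK cells at 0.71 (0.52 to 0.91), in CD45-negative cells at 0.75 (0.50 to 0.99) and in barcodes with both T cell and macrophage markers at 1.28 (0.66 to 1.94), but not in macrophages at 0.42 (-0.21 to 1.06) or CD8 T cells at 0.35 (0.01 to 0.70). Cdkn1b, the gene of the cell cycle inhibitor p27, was within 1.5-fold in immune cells at 0.56 (0.45 to 0.68). It was past it in Tregs at 1.15 (0.35 to 2.01), monocyte-like cells at 1.12 (0.69 to 1.58), NK cells at 0.65 (0.23 to 1.08) and CD45-negative cells at 0.61 (0.23 to 0.97). The list thus had 2 of 6 higher in NK cells, against 8.48% of all genes, 1 of 5 in monocyte-like cells, against 7.98%, 1 of 6 in barcodes with both marker sets, against 5.93%, and 2 of 8 in CD45-negative cells, against 9%. Tregs had 1 of 4 higher, against 13.4%, and Cacybp lower at -0.64, against 15.3%. CD4 T cells had Traf2 lower of 4 at -0.83, against 15.4%, and CD8 T cells, macrophages and DCs had 0 past 1.5-fold. Akap1 was counted in 1 class, CD45-negative cells, at 0.26 (-0.42 to 0.88).

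The HIF-induced list was also read class by class. In macrophages 9 of 14 were past 1.5-fold higher, against 6.96% of all genes, with a median of 0.87 against -0.06 over all genes. In CD8 T cells 3 of 12 were higher, against 7.23%, with a median of 0.35, namely Bnip3 at 1.11 (0.78 to 1.45), Ndrg1 at 0.85 (0.38 to 1.34) and Bhlhe40 at 0.76 (0.65 to 0.87). Monocyte-like cells had 5 of 14 higher, against 7.98%, with a median of 0.19, namely Ndrg1 at 1.29, Vegfa at 1.09, Ero1l at 1.09, Mxi1 at 0.99 and Bnip3 at 0.68. Barcodes with both T cell and macrophage markers had 5 of 14 higher, against 5.93%, with a median of 0.44, namely Vegfa, Ndrg1, Bnip3, Bhlhe40 and Slc2a1. NK cells had 2 of 12, Vegfa and Bhlhe40, against 8.48%, with a median of -0.03. DCs had 0 of 8, against 12.5%, with a median of 0.14. Tregs had 1 of 6, Bhlhe40, against 13.4%, with a median of 0.07. CD4 T cells had Bhlhe40 and Pdk1 higher and Bnip3 lower of 9, against 20.6% higher and 15.4% lower, with a median of 0.00. CD45-negative cells had 10 of 15 higher, against 9%, and 0 lower, with a median of 0.81 against -0.02. There Ndrg1 had 249 and 174 UMIs (13.0 and 60.6 CPM) and a ratio of 2.22 (1.93 to 2.50), and Car9, a carbonic anhydrase, 158 and 99 UMIs (8.27 and 34.5 CPM) and 2.06 (1.68 to 2.43). Egln3, with 0.17 in the same cells, lay within 1.5-fold there. Genes named within a class were chosen after their values were seen.

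**Figure D3:**
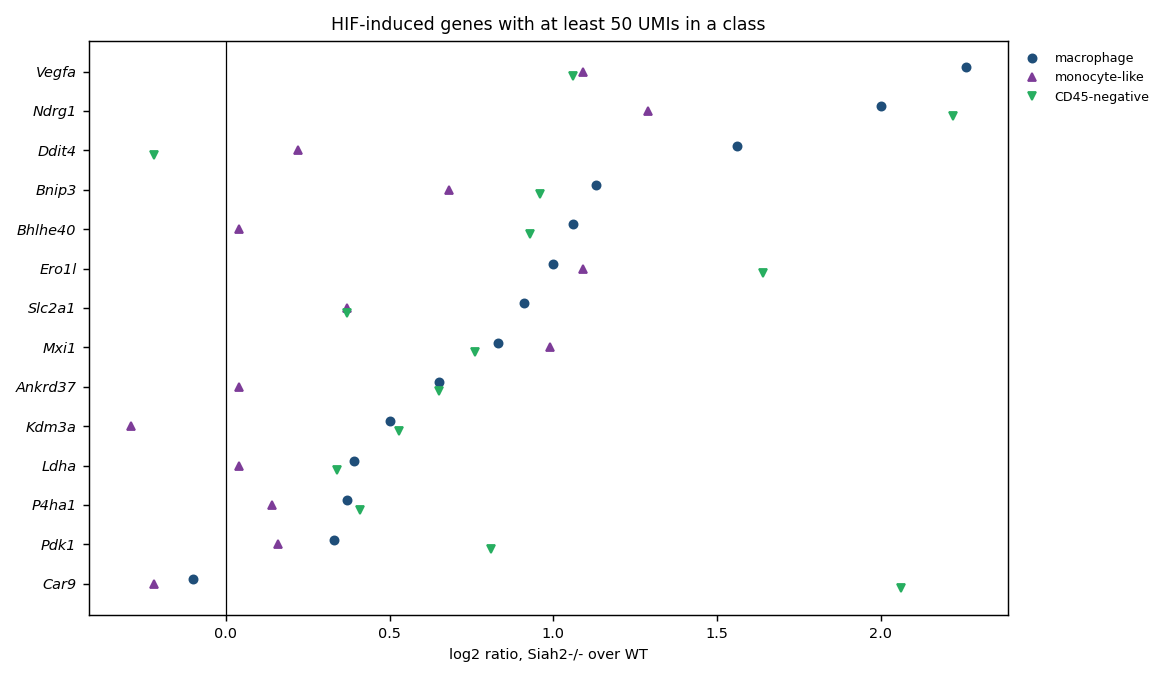
Log2 ratio of the Siah2-/- library over the WT library (horizontal axis) for HIF-induced genes with at least 50 UMIs over both libraries in the class, in macrophages, monocyte-like cells and CD45-negative cells, without error bars (Adm, counted only in CD45-negative cells among these, is not drawn). The median is 0.87 in macrophages, 0.19 in monocyte-like cells and 0.81 in CD45-negative cells. The CD45-negative cells are highest of the 3 for Ndrg1, Ero1l, Car9, Pdk1, P4ha1 and Kdm3a. Only for Car9 is their interval clear of those of both other classes.

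Likeness to other genes was described by Pearson's r of log2(CPM + 5) over the 18 class and library values, among 9788 genes with at least 500 UMIs. The 18 points share 2 libraries and differ in depth and cell number, so r is a description. The like genes named were picked for the highest r among all genes compared, so their r is high by selection. Vhl was closest to Cst3 (0.94) and Clic4 (0.89). Egln3 was closest to Apba3 (0.92), Mdm2 (0.87) and Ifit1 (0.85). Hif1a was closest to Zfp292, Parp9 and Oxsr1 (0.90 each), and Siah2 to Ccdc28b (0.90) and Epn1 (0.85). Egln1 had Lrig2 (0.84), Tgtp2 (0.81) and Gm21988 (0.79), and Egln2 had Gas2l3, E2f5 and 2210404O09Rik (0.86 each). Siah1a had Dync1li2, Papss1 and Nthl1 (0.88 each), and Siah1b had 2310061I04Rik (0.91), Kif20b and Gpsm2 (0.90 each). Among the 36 pairs of the 9 genes, r ran from -0.52 for Hif1a and Vhl to 0.74 for Siah1b and Egln2. Siah1b and Egln2 both had their highest level in the 20 WT CD4 T cells, 14.5 and 91.6 CPM, from 3 and 19 UMIs.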

How the data were processed

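The authors made the unfiltered matrices of UMI counts with bcl2fastq and Cell Ranger on mm10/GRCm38 (no version is given in the sources), and also deposited a table of raw counts for cells left after removal of extremes in genes per cell and of cells with over 10% mitochondrial transcripts. Values deposited as natural logs of 1 plus UMIs per 10000 served only as an alternative list of cells. For the 9 genes, the matrices and the raw table held the same count in every cell. Cells were gated on marker UMIs with limits set after the marker values, and not the 9 genes, had been seen. The genes and lists were chosen with earlier results of these data known. Classes were not cleaned of doublets beyond keeping barcodes with T cell and macrophage markers apart. UMIs were summed per class and library (Python 3.11.15, numpy 2.4.6, scipy 1.17.1). Poisson, Clopper-Pearson and conditional binomial intervals are exact and cover counting error only, as do floors of 3 counts, and depth sets their width. Genes were called past 1.5-fold with at least 50 UMIs over both libraries. Alternatives changed the cells, gates, weights, scaling, free RNA and doublets (closing section). Ratio and thinning code was tested on simulated data. All 9 genes were described, at most 3 list genes per direction were named by size in immune cells, and 3 like genes for those with at least 300 UMIs. A macrophage subset and some like genes are not reported here. Positions come from GENCODE and promoters from RefSeq.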

Additional observations from a re-analysis of the deposited data

How the results depend on the processing

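Each genotype has 1 library, so nothing separates a genotype difference from a difference between libraries, and intervals leave out the spread between tumors. No paired analysis was possible because each genotype has 1 library. Of 110 immune-cell log2 ratios under alternatives, 98 stayed within the interval of the reported value and 0 of the called ones changed sign. With classes weighted equally, so that 20 WT CD4 T cells counted as a full class, Siah1a was -0.18, Egln2 -0.28, Egln3 0.58 and Hif1a 0.55. Summing Siah1a and Siah1b gave -0.06 for both. Over all barcodes with at least 1000 UMIs, Egln3 was 0.79, Hif1a 0.51 and Siah1b -0.44. Egln3 was 1.30 without the 5% of cells with most UMIs and 1.25 with cells weighted equally. Hif1a was 0.64 with the WT minimum UMI count in both libraries and, in an alternative chosen after seeing the data, 0.80 without barcodes with T cell and macrophage markers. Within classes and subsets 920 of 930 values stayed within their interval and 10 moved. Many of these intervals were wide, such as -0.31 to 7.57 for Egln1 in CD4 T cells. Calls at 1.5-fold were lost or gained inside them. Without the 5% of cells with most UMIs, CD45-negative cells gave -1.23 for Siah1a, -0.05 for Egln2 and 0.05 for Hif1a, and those with Hmga2 UMIs 0.87 for Egln3. Monocyte-like cells gave -0.88 for Siah2 with marker minimums doubled and 0.24 for Hif1a over all barcodes with at least 1000 UMIs, where CD4 T cells gave -0.40 for Egln2 and 0.45 for Hif1a. Egln3 in NK cells, with few UMIs, was 1.63 with marker minimums doubled and -3.75 with free RNA subtracted. The cause of these moves was not tested. Ratios with 0 UMIs in a library gave no value. Thinning to 2000 UMIs moved 17 of 18 shares.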
